A study of Rattus norvegicus with 36 samples.

Results

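Among the genes on the array, 30 were abundant in newborn rat leg muscle and scarcer there at day 45, while extraocular muscle (EOM), the set of small muscles that move the eye, held a day 45 level little below, and for some above, that of day 0. They were chosen by their measured levels. The log2 intensity of each probe set, with values under 100 raised to 100, was averaged over the 3 arrays of a group, and each gene was represented by its probe set with the highest mean over all 36 arrays. A gene was a member when its leg mean was at least 10 at postnatal day 0, its leg mean was lower at day 45 than at day 0 by at least 1.5 log2 units, and its EOM mean at day 45 was no more than 0.5 below that at day 0. Of 4736 genes with a probe set of 1 symbol, 1938 met the leg day 0 limit. Once the developmental myosins Myh3 and Myh8 had been set aside, 210 of these also met the leg limit and 30 met all limits. The day 0 and day 45 levels of the members are therefore a description of the choice, and tests are given only for days 7, 14, 21 and 28, whose levels the limits did not use. The arrays of those days entered only through the mean over 36 arrays that picked 1 probe set per gene.

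The series follows postnatal development of rat EOM and of a leg muscle sample labelled gastrocnemius/soleus, the calf muscles, at days 0, 7, 14, 21, 28 and 45, on Affymetrix RG-U34A arrays. Each of the 12 groups of 1 muscle and 1 age holds 3 arrays. The labels name the muscle, the day and a replicate number and do not state whether a replicate is an animal, a pool or a repeat of the same RNA. The p-values below thus cover only the scatter among these arrays, which may be technical. Array medians lay between 418.7 and 652.2 intensity units, 9.92% to 23.5% of probe sets were at or under 100, and arrays of 1 group correlated at 0.909 to 0.968 over all probe sets. The muscle labels were checked first: Myh13, the myosin heavy chain specific to EOM, rose in EOM from a mean log2 of 8.16 at day 0 to 14.4 at day 45 and stayed between 8.45 and 9.37 in leg, and of 9 skeletal muscle markers desmin, fast troponin I and slow myosin (Myh7) were at a mean log2 of 12.5 or more in every group. The others were lower in some groups: Tnnt3 reached down to 11.49, Myh1 ran from 9.87 to 11.57, skeletal actin (Acta1) was at 9.39 to 9.88 in leg and 10.38 to 12.49 in EOM, and Myh2 and Myh4 were lowest at day 0. The probe set of muscle creatine kinase (Ckm) went against its name, at the floor on all arrays of days 21 and 28 in both muscles. These are bulk samples, so fewer cells of a type and less RNA per cell cannot be told apart.

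Newborn muscle fibres are still contacted by several motor axons, carry fetal forms of the acetylcholine receptor and of myosin, and grow in a bed of dividing cells and new matrix. Over the first postnatal weeks leg muscle replaces these products with adult ones. EOM is known for keeping several of them for life: some of its adult fibres bear many small nerve endings, retain the fetal receptor and contain developmental myosins. The members span 6 roles: synapse, nerve and cytoskeleton (Chrnd, Pmp22, Map2 and Actg2); protein kinase A and other signalling (Prkar1a, Pja2, Akip1, Stk39 and Nos2); secreted factors and proteases (Igf1, Tgfb3, Fstl1, Thbs4, Egfl7, Klk1 and Klk1c3); lipid metabolism (Acly, Scd2, Insig1, Hsd17b12, Cidea, Cdipt and Plpp3); membrane proteins and the secretory pathway (Tspan3, Scamp2, Serp1, Slc16a6 and Cavin3); and epidermal keratins (Krt1 and Krt10).

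Promoter sequences are shown for Chrnd, Prkar1a, Klk1 and Scd2, each from a different role, to set members of different roles and ages of leg loss side by side. RefSeq gave 27 promoters for 26 of the 30 members on build GRCr8, and Cavin3, Krt1, Nos2 and Slc16a6 had no entry. The 250 bases before each start were searched on both strands for CANNTG, the E-box read by basic helix-loop-helix factors such as the myogenic regulators, for CCAAT, the box read by NF-Y, and for TATAAA, the core of the TATA box. The E-box was present in 16 of the 27 member promoters (59.3%), beside 65.5% of all 33469 promoters of this length, CCAAT was present in 13 (48.1%), beside 34%, and TATAAA was present in 1 (3.7%), that of Krt10, beside 12.9%. Chrnd, Prkar1a and Klk1 are printed with their E-boxes in capitals and Scd2 with its CCAAT boxes in capitals, all 5′ to 3′ on the plus strand.
Chrnd (delta subunit of the muscle acetylcholine receptor), chr9:95310066-95310315: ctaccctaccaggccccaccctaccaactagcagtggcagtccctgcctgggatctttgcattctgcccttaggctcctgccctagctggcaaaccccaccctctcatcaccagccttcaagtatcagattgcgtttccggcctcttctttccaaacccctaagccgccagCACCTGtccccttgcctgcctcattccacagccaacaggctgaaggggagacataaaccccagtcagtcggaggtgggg
Prkar1a (regulatory subunit of protein kinase A), chr10:95120287-95120536: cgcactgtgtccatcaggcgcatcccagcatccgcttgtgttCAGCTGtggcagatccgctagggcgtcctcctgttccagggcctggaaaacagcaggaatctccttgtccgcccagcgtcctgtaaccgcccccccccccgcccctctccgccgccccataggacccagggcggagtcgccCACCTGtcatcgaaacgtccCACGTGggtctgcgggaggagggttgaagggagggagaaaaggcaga
Klk1 (tissue kallikrein), chr1:103778902-103779151: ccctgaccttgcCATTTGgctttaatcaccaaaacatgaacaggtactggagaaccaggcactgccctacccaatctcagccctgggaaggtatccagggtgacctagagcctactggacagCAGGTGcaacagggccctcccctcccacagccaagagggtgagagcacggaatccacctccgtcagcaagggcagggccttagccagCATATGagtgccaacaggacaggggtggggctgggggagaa
Scd2 (stearoyl-CoA desaturase), chr1:253118127-253118376: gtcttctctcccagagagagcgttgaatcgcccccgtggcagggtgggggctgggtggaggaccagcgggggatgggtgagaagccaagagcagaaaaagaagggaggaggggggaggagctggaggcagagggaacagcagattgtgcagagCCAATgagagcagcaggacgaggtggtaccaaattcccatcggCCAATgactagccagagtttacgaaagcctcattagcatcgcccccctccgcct
The Chrnd window holds a single E-box, CACCTG, whose first base is at position -79 counted from the start. The Prkar1a window holds 3, of which CACGTG is nearest to the start, and the Klk1 window also holds 3. A match of letters is a description and not a binding site.

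Leg lost the members at different ages. The median leg change from day 0 to day 45 was -1.78 log2, from -1.51 for Prkar1a to -3.54 for Krt1, and the median EOM change was -0.10, from -0.46 for Krt10 to 1.68 for Klk1. All 3 leg day 0 arrays lay above all 3 leg day 45 arrays for 29 of the 30, Nos2 being the exception. The limits used these same arrays, so this separation reflects the choice, and no share over all probe sets was counted. EOM means were higher at day 45 than at day 0 for 9 members, namely Actg2, Cidea, Igf1, Klk1, Klk1c3, Plpp3, Pmp22, Stk39 and Thbs4. At day 0 the EOM mean was below the leg mean for 22 members. The share of all probe sets was not counted, and the choice by a high leg day 0 level favours such a count. All 3 leg arrays lay above all 3 EOM arrays at day 0 for 11 members, beside 9.16% of all probe sets. Part of the group thus started lower in EOM and did not have leg's neonatal level to keep.

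**Figure D1:**
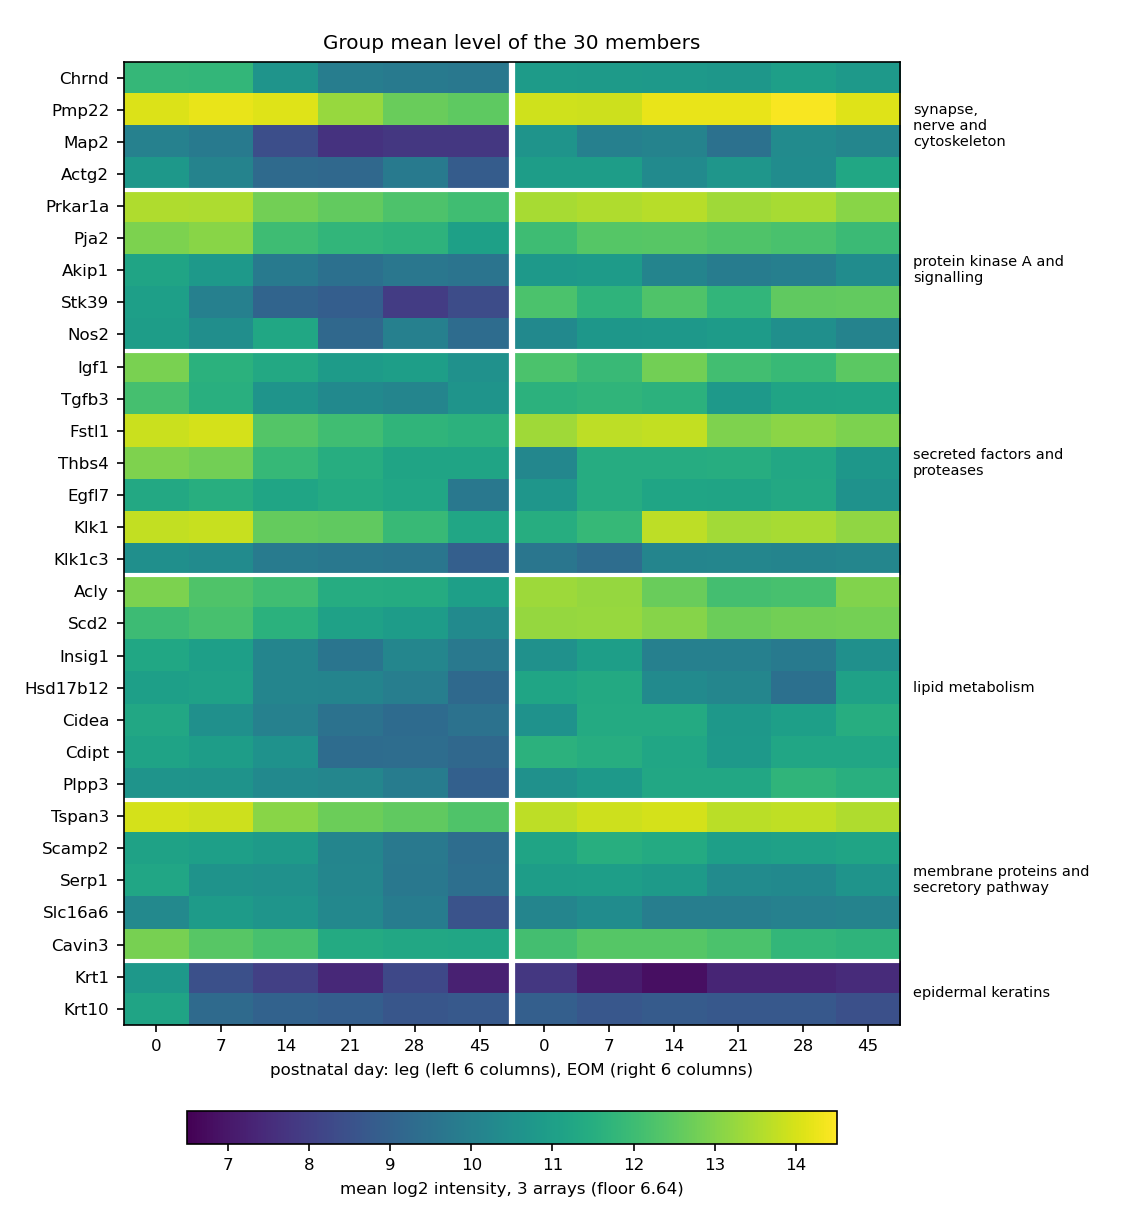
Group mean log2 intensity (colour, 3 arrays a group, floor 6.64) of the 30 members by role, with the 6 ages of leg in the left columns and of EOM in the right columns. Pmp22, Tspan3 and Fstl1 were the members with the highest leg day 0 means, and Krt1 and Krt10 are dark in EOM at every age.

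The midpoint of the leg loss, the first age at which the mean had covered 50% of its log2 decrease from day 0 to day 45, came at day 7 for 3 members, at day 14 for 12, at day 21 for 10, at day 28 for 2 and at day 45 for 3. Igf1 and both keratins were past it by day 7. The receptor subunit Chrnd, the microtubule protein Map2, the signalling genes Prkar1a, Akip1 and Stk39, the secreted Fstl1, Tgfb3 and Thbs4, and also Actg2, Cidea, Insig1 and Tspan3 passed it by day 14. Pmp22, Pja2, Nos2, the lipid genes Acly, Scd2, Hsd17b12 and Cdipt, and Scamp2, Serp1 and Cavin3 passed it by day 21. Both kallikreins passed it at day 28. Egfl7, Plpp3 and Slc16a6 passed it only between days 28 and 45. For Plpp3 the day 45 mean was pulled down by leg replicate 3, at 156.5 beside 1083.5 and 737.5. Without that array Plpp3 was not a member, so its age of loss is uncertain. The ages are those of group means, and some lie close to the limit: Hsd17b12 had covered 49.6% of its loss by day 14 and Klk1c3 49.8% by day 21.

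**Figure D2:**
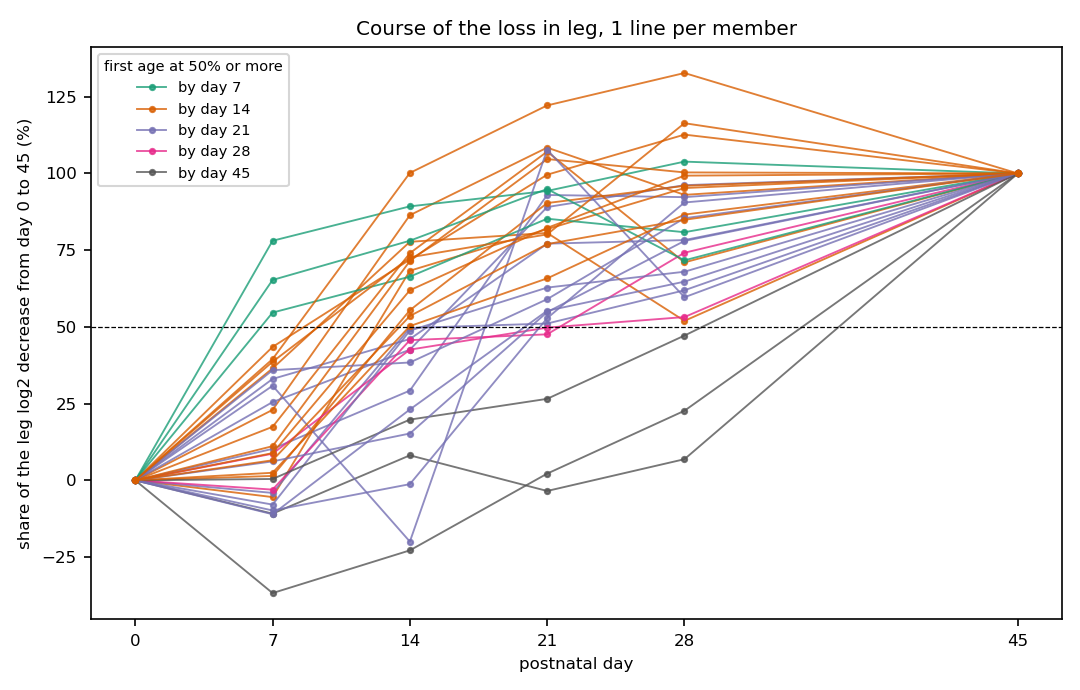
Share of the leg log2 decrease from day 0 to day 45 (%) that each member had covered at each postnatal day, 1 line a member, coloured by the first age at 50% or more. Values below 0 are levels above day 0, as for Slc16a6 at day 7 (-36.7%), and values above 100 are levels below day 45, as for Tgfb3 at day 28 (133%).

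The days that the limits did not use gave a test of the leg loss. The leg mean was lower at day 28 than at day 7 for all 30 members, and the fall passed an adjusted p of 0.05 in 23 of 30, beside 15.7% of all 6280 tested probe sets. The median change was -1.20 log2 for the members and -0.09 for all tested probe sets, and no member rose, beside 9.55% of all. For the same 23 members all 3 day 7 arrays lay above all 3 day 28 arrays, beside 23.2% of all probe sets. The 7 others were Actg2, Egfl7, Igf1, Klk1c3, Krt1, Krt10 and Nos2, 3 of which had passed their midpoint by day 7. Between neighbouring ages fewer calls were made. From day 7 to day 14, 9 members fell (Akip1, Chrnd, Fstl1, Klk1, Pja2, Prkar1a, Tgfb3, Thbs4 and Tspan3), beside 2.28% of all probe sets, and none rose, beside 2.31%. This count was 5 without leg day 7 replicate 2 and 5 with median scaling. From day 14 to day 21 no member passed the limma test, beside 0.414% of all probe sets called lower and 0.175% called higher. At an unadjusted p under 0.05 in either direction there were 7 members. Shares of all probe sets were taken at the adjusted limit only, so unadjusted counts here and below have none beside them. Without leg day 21 replicate 3, which stood above its partners for many members, 4 of them (Acly, Cavin3, Cdipt and Pmp22) fell in that step. From day 21 to day 28 no member passed the limma test, beside 0.143% of all probe sets called lower and 0.0478% called higher. At an unadjusted p under 0.05 in either direction there were 4 members.

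In EOM the same interval left most members without a call. From day 7 to day 28, 6 members fell (Acly, Akip1, Hsd17b12, Insig1, Serp1 and Tgfb3), beside 12.3% of all probe sets, and 2 rose (Klk1 and Plpp3), beside 8.26%. The median EOM change was -0.22 for the members and -0.08 for all. With the replicate number as a block, 4 members rose, the added ones being Klk1c3 (adjusted p = 0.0232) and Pmp22 (adjusted p = 0.0411). The direction over all probe sets depended on the scaling, with 519 higher and 774 lower as deposited and 661 higher and 501 lower when each array was scaled to the same median. By single steps, Akip1 and Insig1 fell and Klk1 rose between days 7 and 14, beside 3.96% and 3.06% of all probe sets, and Tgfb3 fell between days 14 and 21, beside 0.159%. The step calls of Akip1, Insig1 and Tgfb3 each ended without any 1 of 4 arrays, and that of Klk1 held. None passed the limma test between days 21 and 28, beside 0.127% of all probe sets called lower and 0.0159% higher. At an unadjusted p under 0.05 in either direction there were 2 members. Of the 6 members that fell, Acly, Akip1, Hsd17b12 and Insig1 passed under each alternative run, while Serp1 and Tgfb3 missed the limit with median scaling, quantile normalization and the fit over all 36 arrays, and without any 1 of several EOM arrays.

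The difference between the 2 changes, EOM minus leg, was above 0 for 26 members and passed an adjusted p of 0.05 in 8, beside 1.08% of all probe sets. None passed in the other direction, beside 0.748% of all. The 8 were Klk1, Chrnd, Pmp22, Plpp3, Prkar1a, Tspan3, Map2 and Thbs4, and 16 members were at an unadjusted p under 0.05. The median difference was 0.84 log2 for the members and 0.02 for all probe sets. The share of all probe sets above 0 was not counted. The rule took genes with a leg fall and no like EOM fall, which favours a difference above 0. Klk1, Chrnd and Pmp22 passed under every alternative that was run. Plpp3 and Prkar1a each missed the limit in 1 alternative, while Map2, Thbs4 and Tspan3 missed it in 11, 12 and 13 alternatives, all of which kept the direction. The count of 8 fell to 5 without EOM day 7 replicate 1 or 2, EOM day 28 replicate 2, leg day 7 replicate 1 or 2, or leg day 28 replicate 2. Of the other members, Klk1c3 passed with either other scaling (adjusted p = 0.0407 and 0.0466) and without leg day 7 replicate 3 (0.0302). Klk1c3, Fstl1 and Pja2 passed without the arrays numbered 3 (adjusted p = 0.0497, 0.0378 and 0.0136), and Stk39 passed in the fit over all 36 arrays (0.0309).

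**Figure D3:**
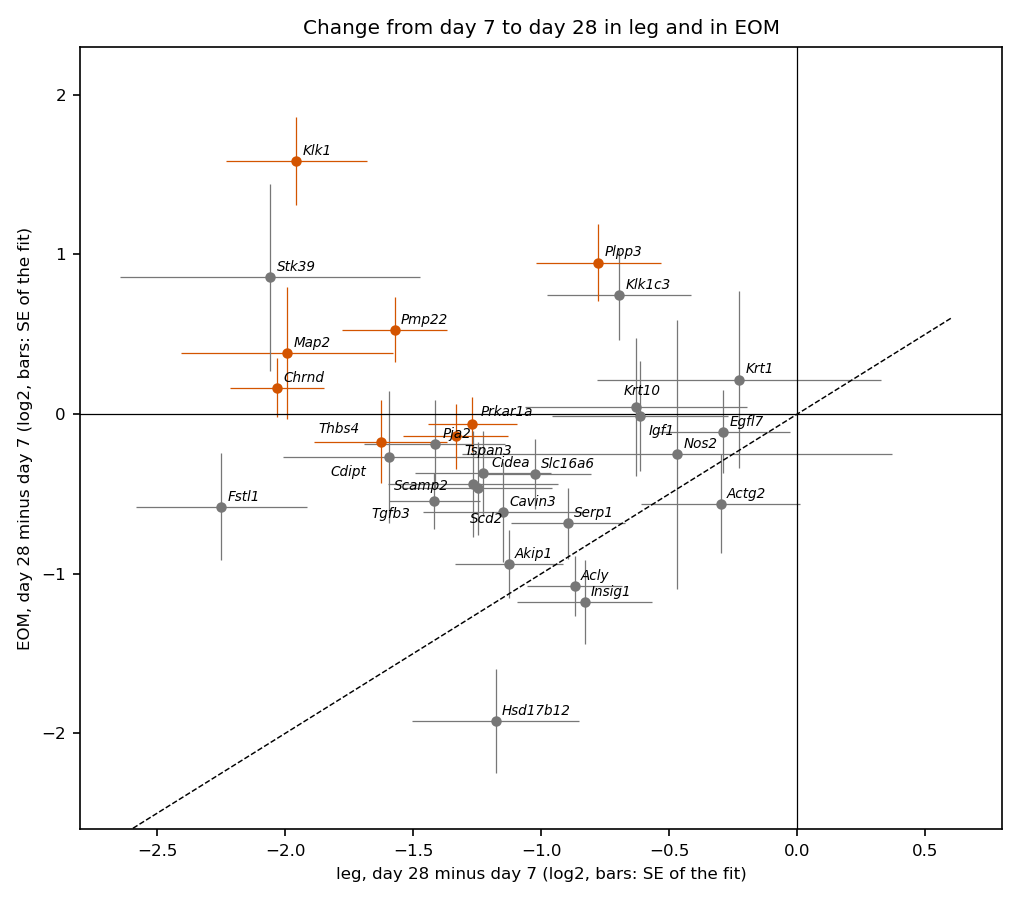
Change from day 7 to day 28 in leg (horizontal) and in EOM (vertical), log2 with the SE of the fit as bars, for the 30 members; the 8 whose changes differed between the muscles are orange and the dashed line marks equal change. All 30 points lie left of 0 on the leg axis, and 26 lie above the dashed line.

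Relative to leg, the members came to stand higher in EOM with age, a trend built into the choice. The limits require EOM minus leg to rise from day 0 to day 45 for each member. They do not set the levels at the ages between. At day 7, 4 members were lower in EOM (Chrnd, Klk1, Klk1c3 and Thbs4), beside 1.78% of all probe sets, and 2 were higher (Acly and Scd2), beside 3.63%. The 2 higher became 1 without EOM day 7 replicate 1, 2 or 3 or leg day 7 replicate 2. With the replicate block Pja2 was also lower (adjusted p = 0.0222) and Cidea also higher (adjusted p = 0.0100). At day 14, 12 were higher, beside 3.11%, and none was lower by the limma test, beside 2.79% (15 members at an unadjusted p under 0.05 in either direction). The 12 became 7 without EOM day 14 replicate 2 or leg day 14 replicate 1, and Slc16a6 was lower without EOM day 14 replicate 3. With the replicate block Slc16a6 was lower too (-0.74 ± 0.21 log2, adjusted p = 0.0362) and Acly was higher (adjusted p = 0.0339). At day 21, 13 were higher, beside 4.0%, and none lower, beside 0.86% (18 members at an unadjusted p under 0.05). The 13 became 5 without EOM day 21 replicate 3, 7 without leg day 21 replicate 2 and 6 when each array was scaled to the same median, a setting that turned 251 higher and 54 lower probe sets into 119 and 66. With the replicate block Fstl1 and Tgfb3 were also higher at day 21 (adjusted p = 0.0458 and 0.0428). At day 28, 15 were higher, beside 8.54%, and none lower, beside 4.98% (17 members at an unadjusted p under 0.05). All 3 EOM arrays lay above all 3 leg arrays for 4 members at day 0 (beside 14.4% of probe sets), 6 at day 7 (12.7%), 14 at day 14 (12.8%), 14 at day 21 (13.7%), 21 at day 28 (16.5%) and 20 at day 45 (11.6%), where days 0 and 45 entered the choice. The reverse, all leg arrays above all EOM arrays, held for 11 members at day 0 (9.16%), 7 at day 7 (9.54%), 2 at day 14 (10.8%), none at day 21 (7.8%), Krt1 at day 28 (12.3%) and none at day 45 (9.44%).

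Intensities on single arrays are given below in the order of replicates 1, 2 and 3, and changes are log2 values with the SE of the fit. Chrnd encodes the delta subunit of the muscle acetylcholine receptor, which sits in the fibre membrane at nerve contacts. In leg it read 3342, 3996 and 3696 at day 0, 3784, 3496 and 3498 at day 7 and 1452, 1868 and 1528 at day 14. It then read 1055, 1037 and 795 at day 21, 1219.5, 689.7 and 805 at day 28 and 896, 742 and 851 at day 45. EOM arrays read 1738, 1881 and 2124 at day 0, 1855, 1834 and 1888 at day 7 and 1724, 2013 and 1645 at day 14, and later 1804, 1612 and 1655 at day 21, 1926, 2173 and 2162 at day 28 and 2327, 1671 and 1584 at day 45. Leg began well above EOM, crossed it around day 14 and lay below it without overlap from day 21, whereas the EOM arrays stayed in 1 band throughout. The leg change from day 7 to day 28 was -2.03 ± 0.18 (adjusted p = 7.2e-08), the EOM change was 0.16 ± 0.18 (adjusted p = 0.597), and the difference was 2.20 ± 0.26 (adjusted p = 2.55e-05). Leg day 7 to day 14 alone gave -1.16 ± 0.18 (adjusted p = 0.000568).

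Pmp22, a tetraspan protein of compact peripheral myelin made chiefly by Schwann cells, was the member with the highest leg day 0 mean. Leg arrays read 20090.0, 14897 and 17654 at day 0, 19714, 18542 and 19900.0 at day 7 and 19282, 15738 and 18126 at day 14. They then read 8593, 7742 and 14185 at day 21, 5699, 7457 and 6497 at day 28 and 4609, 4608 and 9552 at day 45. The EOM values were 14454, 13741 and 18325 at day 0, 17636, 14378 and 13565 at day 7 and 24438, 16034 and 18359 at day 14, and 21328, 17038 and 19386 at day 21, 23850.5, 17502 and 24715 at day 28 and 14546, 15889.6 and 23605 at day 45. Leg held its neonatal level through day 14 and was lower at days 21, 28 and 45, with replicate 3 high at days 21 and 45, and the muscles did not overlap from day 21. The changes were -1.57 ± 0.20 in leg and 0.53 ± 0.20 in EOM (adjusted p = 7.56e-06 and 0.0714), and their difference was 2.10 ± 0.29 (adjusted p = 0.000152). Some markers of Schwann cells fell with it in leg, but the list as a whole did not follow it in EOM. The list's median change was -0.83 in leg and -0.37 in EOM. Of 10 Schwann genes tested, Pmp22 included, 4 fell in leg over this interval (Mbp -2.57 ± 0.47, Cnp -2.54 ± 0.47, Prx -1.22 ± 0.21 and Pmp22) and 2 rose (Ngfr and Cryab, which also rose in EOM). In EOM 1 fell, Sox10 (-2.09 ± 0.41). At day 28, 6 of the 10 were higher in EOM than in leg, among them Mbp by 3.51 ± 0.47. The list's summed intensity was 54291 to 70021 on EOM day 28 arrays and 45673 to 48125 on leg day 28 arrays. On the leg arrays of day 7 it was 46996 to 54154, and Sox10 was at the floor on all of them. These sums hold Pmp22 itself and Cryab, a chaperone that muscle fibres also make and the most abundant of the 10 in leg at day 28 (mean log2 14.85). Without both, the other 8 summed to 16166 to 19774 in EOM and 9860 to 11375 in leg at day 28, and to 21213 to 29541 and 9846 to 14266 at day 7. The part of these cells in the Pmp22 result was not tested.

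Map2, a microtubule-associated protein known mainly from neurons, was the member nearest to the leg day 0 limit. Leg arrays carried 732, 1103 and 1401 at day 0, 911, 912 and 812 at day 7 and 457, 257 and 348 at day 14. Later values were 320.1, 144 and 189.9 at day 21, 395, 199.5 and 136 at day 28 and 251, 242 and 179 at day 45. EOM arrays carried 1222, 1506 and 2144 at day 0, 783, 1032 and 1302 at day 7 and 789, 1359 and 1192 at day 14, and 365, 867 and 1157 at day 21, 1039.9, 1684 and 1333 at day 28 and 1732, 1191 and 755 at day 45. From day 14 every EOM array lay above every leg array, although EOM day 21 replicate 1 came close to the leg range. The leg change of -1.99 ± 0.41 (adjusted p = 0.0012) and the EOM change of 0.38 ± 0.41 (adjusted p = 0.583) differed by 2.38 ± 0.59 (adjusted p = 0.0354), a call that leaving out any 1 of 9 of the 12 arrays concerned ended. The 7 axon markers summed to 2829 to 3591 on EOM day 28 arrays and 2131 to 2597 on leg day 28 arrays. At day 7 they summed to 3476 to 4138 in EOM and 2743 to 3063 in leg. The list's median difference of changes was -0.17. The part of axons in the Map2 result was not tested.

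Actg2, the gamma actin of smooth muscle, was 1 of 4 members whose difference of changes was below 0. Its leg intensities were 1604, 2236 and 1488 at day 0, 1249, 1424 and 692 at day 7 and 399.5, 803 and 732 at day 14. At the later ages they were 707, 744 and 397 at day 21, 877, 772 and 976 at day 28 and 117, 931 and 881 at day 45. In EOM they were 1324, 1958 and 3058 at day 0, 2149.5, 2333 and 1565 at day 7 and 1362, 1315 and 1197 at day 14, and 1996, 1717 and 1345 at day 21, 1036, 1276 and 1843 at day 28 and 2577, 2482 and 2371 at day 45. Leg day 45 replicate 1 stood far below its partners, which read like the leg arrays of days 14 to 28. EOM was higher at days 14 (1.06 ± 0.31, adjusted p = 0.0449) and 21 (1.49 ± 0.31, adjusted p = 0.00785), and the difference of changes was -0.26 ± 0.44 (adjusted p = 0.877). The day 14 call ended without any 1 array but leg day 14 replicate 2 (adjusted p from 0.0501 to 0.249, the latter without leg day 14 replicate 1 at 0.75 log2), and with median scaling, no filter, an untrended prior or all 36 arrays (0.0554 to 0.231). The day 21 call ended in the 36-array fit (0.0696). The 6 smooth muscle and pericyte markers, which do not include Actg2, summed to 29634 to 34098 on leg and 18376 to 20968 on EOM day 14 arrays. The order of these sums was the reverse of that of Actg2. They hold desmin, also a skeletal muscle marker, at a mean log2 of 13.50 in leg and 13.12 in EOM at day 14. By single genes, the list's median EOM minus leg value at day 14 was 0.25, with 1 gene called lower and none higher. The part of these cells in the Actg2 result was not tested.

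Prkar1a encodes a regulatory subunit of protein kinase A, which holds the catalytic subunits inactive until cyclic AMP binds. Leg arrays gave 10532, 12594 and 13337 at day 0, 10647, 13209.5 and 11638 at day 7 and 5062, 9118 and 7924 at day 14. From day 21 they gave 6153, 6413 and 5692 at day 21, 4516, 5369 and 4826 at day 28 and 4991, 3996 and 3853 at day 45. The EOM arrays gave 10688, 11096 and 11782 at day 0, 11226, 11369 and 13002 at day 7 and 13092, 13136 and 12140.2 at day 14, and 8970.2, 10670.3 and 12137 at day 21, 10339, 12650.5 and 11108 at day 28 and 9952, 7987 and 8168 at day 45. The muscles overlapped at days 0 and 7 and separated from day 14 as the leg mean went lower at each age. Leg changed by -1.27 ± 0.17 (adjusted p = 1.38e-05) and EOM by -0.06 ± 0.17 (adjusted p = 0.847), a difference of 1.20 ± 0.25 (adjusted p = 0.0085) that missed the limit without the arrays numbered 3 (adjusted p = 0.0798). Another 2 members act on the same kinase. Pja2, a ubiquitin ligase that targets its regulatory subunits, changed in leg by -1.42 ± 0.28 (adjusted p = 0.000641) and in EOM by -0.19 ± 0.28 (adjusted p = 0.703), with the difference at 1.23 ± 0.39 (adjusted p = 0.116). Akip1, a protein that binds the catalytic subunit, fell in both muscles, by 1.13 in leg (adjusted p = 0.000458) and by 0.94 in EOM (adjusted p = 0.00282), and its EOM mean log2 was 9.96 at day 28 and 10.39 at day 45.

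Stk39 encodes SPAK, a kinase that controls cation-chloride cotransporters. Leg intensities were 1762, 1782 and 2792 at day 0, 2447, 714 and 597 at day 7 and 229, 866 and 808 at day 14. They went on as 1582, 292 and 229.8 at day 21, 279.9, 231 and 224 at day 28 and 448, 259.7 and 306 at day 45. EOM intensities were 5611, 5103 and 3975 at day 0, 2324, 3794 and 4186 at day 7 and 5706, 5481 and 4049.5 at day 14, and 2736, 4031 and 3859.6 at day 21, 6524, 7437 and 4517 at day 28 and 6361, 7520.2 and 4915 at day 45. EOM arrays were above leg arrays at every age except day 7, where leg replicate 1 reached into the EOM range, and that same replicate number was high again in leg at day 21. EOM exceeded leg by 4.63 ± 0.59 at day 28 (adjusted p = 1.45e-05), the widest gap of any member at that age. The difference of changes, 2.91 ± 0.83 (adjusted p = 0.0751), did not pass. Nos2, the inducible nitric oxide synthase, varied most within groups, by up to 3.73 log2 between arrays of 1 group, and passed no test at days 7 to 28. Its leg intensities at day 0 ran from 658 to 4017. The 11 leukocyte markers summed to 31269 and 33641 on EOM day 21 replicates 1 and 3 against 9908 on replicate 2, while Nos2 read 1652, 1732 and 2382 on those arrays in the same order.

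**Figure D4:**
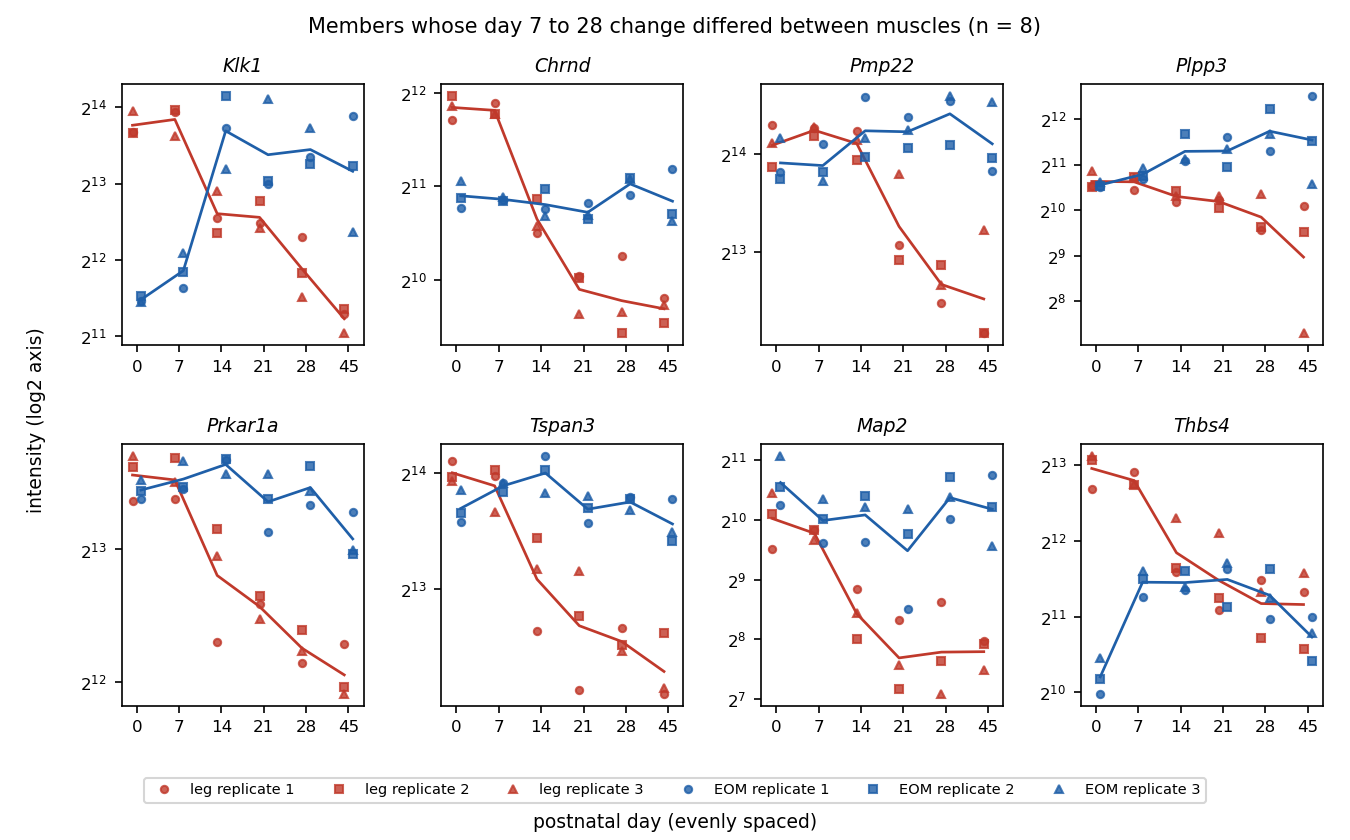
Intensity (log2 axis) on every array at the 6 ages for the 8 members whose change from day 7 to day 28 differed between muscles; lines join group means of log2 values. Leg (red) falls in all 8 panels, and EOM (blue) rises between days 7 and 14 for Klk1.

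Klk1, tissue kallikrein, a serine protease that releases kinins, had the largest difference of changes. Leg read 13103, 12993 and 15831 at day 0, 15646, 16041 and 12593 at day 7 and 6014, 5243 and 7688 at day 14. It went on to 5724, 6998 and 5476 at day 21, 5063, 3655 and 2919.6 at day 28 and 2501, 2629 and 2104 at day 45. EOM read 2833, 2943 and 2794 at day 0, 3185, 3687 and 4367 at day 7 and 13627, 18175 and 9328 at day 14, and 8184, 8371 and 17635 at day 21, 10435, 9790.1 and 13611 at day 28 and 15129, 9638 and 5278 at day 45. The muscles crossed between days 7 and 14: every leg array was above every EOM array at days 0 and 7, and every EOM array was above every leg array from day 14 on. EOM rose by 1.83 ± 0.27 from day 7 to day 14 alone (adjusted p = 0.000187), and the changes to day 28 were -1.96 ± 0.27 in leg (adjusted p = 1.99e-05) and 1.59 ± 0.27 in EOM (adjusted p = 0.00025), a difference of 3.54 ± 0.39 (adjusted p = 1.05e-05). For Klk1 the word kept falls short, since its EOM mean log2 was 11.48 at day 0 and 13.16 at day 45. Its relative Klk1c3 read 1257, 1329 and 1757 at day 0, 1686, 1425 and 921 at day 7 and 865, 1059 and 803 at day 14 in leg. It went on in leg to 1069.8, 821 and 663 at day 21, 977, 911 and 585 at day 28 and 537, 563 and 377 at day 45. EOM arrays read 947, 827 and 666 at day 0, 657, 669 and 637 at day 7 and 1261, 1609 and 726 at day 14, and 936, 1280.1 and 1259 at day 21, 1172, 1105 and 1019 at day 28 and 1230.5, 1554 and 784 at day 45. It stood lower in EOM at days 0 and 7 and higher at days 28 and 45, with the muscles overlapping between, and had a difference of 1.44 ± 0.40 (adjusted p = 0.0648). Kallikrein genes are near-identical copies and these probe sets carry Affymetrix's suffixes for shared or incomplete probe families, so which kallikrein was measured is uncertain. A further Klk1 probe set gave a difference of 3.14 ± 0.40 (adjusted p = 6.36e-05). The 10 probe sets of lacrimal and Harderian gland epithelium summed in EOM to 25519 to 35847 at day 0, 8668 to 19116 at day 7 and 3112 to 3755 at day 14. The part of gland cells in the kallikrein results was not tested.

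Fstl1, a secreted glycoprotein of the follistatin-like family, was among the most abundant members. Leg arrays showed 18969, 11567 and 15414 at day 0, 17770.2, 17013 and 14412 at day 7 and 4286, 4356 and 7589 at day 14. Afterwards they showed 3004, 3304 and 7603 at day 21, 4095, 2334 and 4242 at day 28 and 2488, 2189 and 5967 at day 45. In EOM the arrays showed 8708, 8410.3 and 16089 at day 0, 15456, 9836 and 15202 at day 7 and 13951, 11645 and 16981 at day 14, and 6274, 6774 and 11968 at day 21, 6642, 11351 and 9157 at day 28 and 7379, 7190.1 and 8849.8 at day 45. Leg dropped between days 7 and 14 and its replicate 3 stayed above its partners at days 14, 21 and 45, while EOM means were lower only from day 21. The leg step to day 14 was -1.65 ± 0.34 (adjusted p = 0.00459), and the difference of changes was 1.67 ± 0.47 (adjusted p = 0.0751), which did not pass.

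Tgfb3, a transforming growth factor beta ligand, read 4258, 5427 and 4069.5 at day 0, 2669, 3539 and 2851 at day 7 and 1633, 1760.5 and 1374 at day 14 in leg. Its later leg values were 1262, 1238 and 1261 at day 21, 1147, 1071 and 1149 at day 28 and 2022, 1231 and 1597 at day 45. EOM gave 3259, 3051 and 3229 at day 0, 3585, 3781 and 2839 at day 7 and 3577, 3759 and 2488 at day 14, and 1660.1, 1790.3 and 2001 at day 21, 2302, 2664 and 2024 at day 28 and 3080.3, 1759 and 2489 at day 45. Leg fell first, to a mean log2 of 10.13 at day 28 with 10.63 at day 45, and EOM held its level to day 14 and then fell. EOM was higher by 1.03 ± 0.18 at day 14 (adjusted p = 0.000877) and 1.05 ± 0.18 at day 28 (adjusted p = 0.000327). The difference of changes was 0.87 ± 0.25 (adjusted p = 0.0786).

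Thbs4, a thrombospondin of tendon and muscle matrix, lost in leg what had been an excess over EOM. Leg gave 6618, 8569.6 and 8902 at day 0, 7675, 6841 and 6895 at day 7 and 3079, 3185 and 5068 at day 14. It fell away to 2176, 2431 and 4391 at day 21, 2856, 1675 and 2568 at day 28 and 2564, 1524 and 3061 at day 45. EOM gave 1009, 1153 and 1405 at day 0, 2456, 2894 and 3110.3 at day 7 and 2623, 3101 and 2689 at day 14, and 3179.7, 2232 and 3362 at day 21, 2005, 3174 and 2423 at day 28 and 2032, 1362 and 1767 at day 45. Leg came down to the EOM level, and the muscles overlapped at days 14, 21, 28 and 45. The EOM minus leg value was -1.34 ± 0.26 at day 7 (adjusted p = 0.00218) and 0.11 ± 0.26 at day 28 (adjusted p = 0.839), and the difference of changes was 1.45 ± 0.37 (adjusted p = 0.0405). Igf1, the growth factor that drives muscle growth, lost 54.7% of its leg log2 decrease in the first week, from a mean of 12.88 to 11.59, and EOM was higher by 1.46 ± 0.34 at day 14 (adjusted p = 0.0122) and 1.21 ± 0.34 at day 21 (adjusted p = 0.0464). The Igf1 call at day 21 ended in 8 alternatives, among them both other scalings and leaving out EOM day 21 replicate 3 (0.81 log2, adjusted p = 0.276) or leg day 21 replicate 1 (0.89, 0.231) or 2 (1.38, 0.0633), and that at day 14 ended without EOM or leg day 14 replicate 2 (0.0858 and 0.0596). Egfl7, a secreted protein of endothelium, kept a leg mean between 11.21 and 11.52 through day 28 and was at 9.71 only at day 45, where leg replicates 1 and 2 read 579 and 493, and EOM replicate 2 was likewise low at 517. The 9 fibroblast and tendon markers, Thbs4 among them, summed to 112829 to 127442 on leg day 7 arrays and 94700 to 114432 on leg day 28 arrays, with 101558 to 117663 and 97931 to 115097 in EOM, and their part was not tested.

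Lipid genes formed 1 of the 2 largest role groups, and all 7 fell in leg from day 7 to day 28, beside 15.7% of all probe sets. Insig1 and Plpp3 missed the limit with median scaling, quantile normalization and the 36-array fit, which left 5 of 7, and Cdipt, Hsd17b12 and Scd2 missed it without the arrays numbered 3. Hsd17b12 also missed it without leg day 7 replicate 3, and Insig1 without leg day 7 replicate 2 or 3 or leg day 28 replicate 2. Acly, which makes cytosolic acetyl-CoA for fatty acid and sterol synthesis, read 7680.2, 9050.1 and 6918 at day 0, 4567, 6308 and 4452 at day 7 and 4532, 4003 and 4203 at day 14 in leg. At later ages leg read 2387, 2564 and 3598 at day 21, 2736, 2901 and 2646 at day 28 and 2395, 1665 and 2211 at day 45. EOM read 10723, 10671 and 9528 at day 0, 9964, 10144 and 9105 at day 7 and 5843, 6926 and 6688 at day 14, and 4023, 4071 and 5275 at day 21, 3729.8, 6039 and 4350.4 at day 28 and 10862, 12622 and 3925 at day 45. EOM arrays were above leg arrays at all 6 ages, yet EOM fell as leg did, by 1.08 (SE 0.19, adjusted p = 0.000245) against 0.87 in leg (adjusted p = 0.00152), so the difference was -0.21 ± 0.26 (adjusted p = 0.823). Its EOM day 45 mean was held up by replicates 1 and 2.

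Hsd17b12, a reductase of fatty acid elongation, gave 2017, 2141 and 2071 at day 0, 1892, 1906 and 2888 at day 7 and 852, 1245 and 1336 at day 14 in leg. It ended there at 1037, 1393 and 929.6 at day 21, 1287, 834 and 837 at day 28 and 372, 987 and 596 at day 45. EOM gave 1975, 2128 and 3039.6 at day 0, 3178, 2438 and 2354 at day 7 and 956, 1039 and 2082 at day 14, and 989.8, 1541 and 999 at day 21, 456, 1114 and 658 at day 28 and 3416, 3694 and 818 at day 45. The EOM fall to day 28 (-1.92 ± 0.33, adjusted p = 0.00021) was larger in value than that of leg (-1.18 ± 0.33, adjusted p = 0.011), with a difference of -0.74 ± 0.46 (adjusted p = 0.559), and the muscles parted only at day 45 and only in EOM replicates 1 and 2.

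Insig1, which retains the SREBP activator in the endoplasmic reticulum and so limits sterol synthesis, read 2547, 3326 and 1801 at day 0, 1513, 2624 and 2188 at day 7 and 1527, 1191 and 769.9 at day 14 in leg. The leg series ended at 763, 664 and 951 at day 21, 1196, 999 and 1292 at day 28 and 617, 922 and 1066 at day 45. EOM read 1940.1, 1998 and 880.0 at day 0, 1866, 2621 and 1710.2 at day 7 and 963, 968 and 1148 at day 14, and 1103, 1238 and 776 at day 21, 836, 1089 and 796 at day 28 and 1876, 1695 and 972 at day 45. The muscles overlapped at every age and the difference of changes was -0.35 ± 0.37 (adjusted p = 0.787). For Acly, Hsd17b12 and Insig1 the word kept therefore describes only the 2 end ages. The same holds for the signalling member Akip1, which also fell in EOM to day 28.

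**Figure D5:**
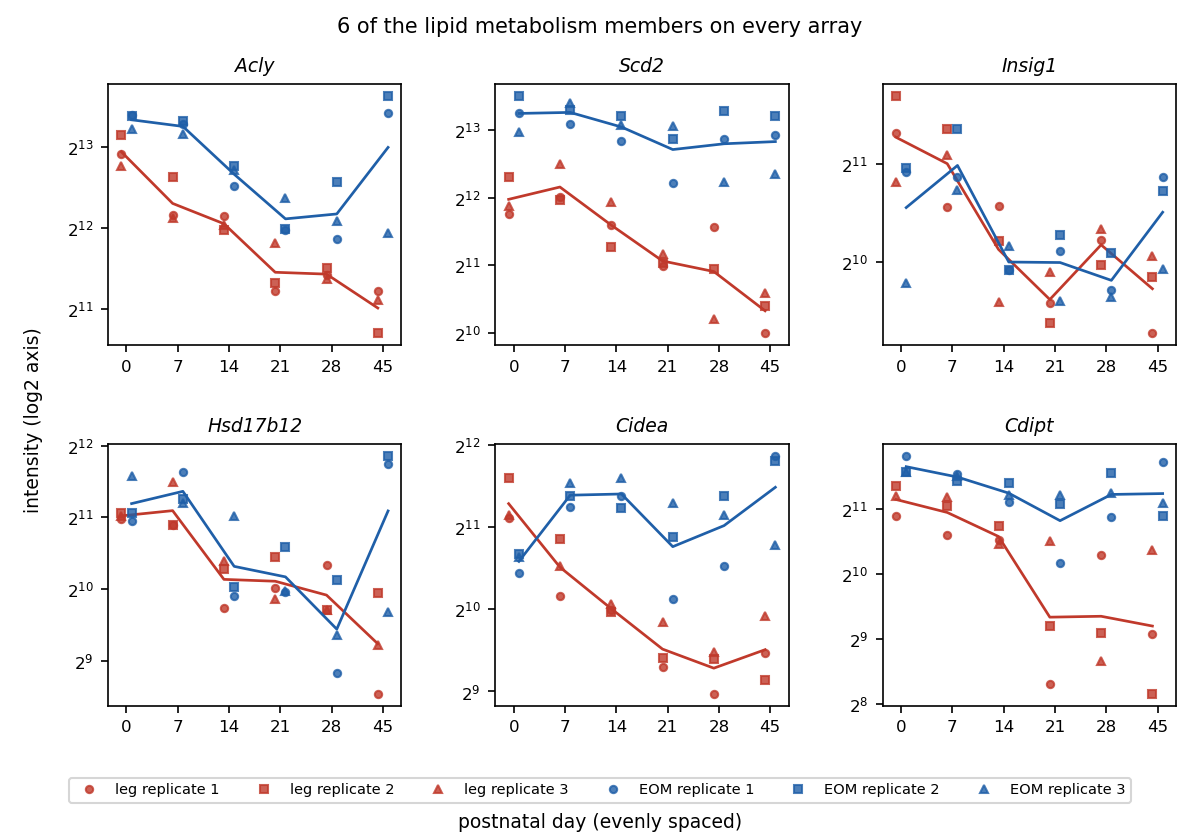
Intensity (log2 axis) on every array at the 6 ages for 6 of the 7 lipid members, leg in red and EOM in blue, with lines joining group means of log2 values. Acly, Scd2 and Cdipt run above leg in EOM at most ages, and Acly, Hsd17b12 and Insig1 dip in EOM before EOM day 45 replicates 1 and 2 stand high.

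Plpp3, a membrane phosphatase of lysophosphatidic acid and other lipid phosphates, moved apart in both muscles. Leg arrays were at 1487, 1445 and 1845 at day 0, 1393, 1691 and 1658 at day 7 and 1154, 1371 and 1265 at day 14. They were later at 1185, 1054 and 1267 at day 21, 752, 786 and 1314 at day 28 and 1084, 738 and 156 at day 45. EOM arrays were at 1461, 1480.2 and 1563 at day 0, 1651, 1709 and 1946 at day 7 and 2158, 3255 and 2236 at day 14, and 3122, 1959 and 2614 at day 21, 2515, 4806 and 3267 at day 28 and 5834, 2955 and 1529 at day 45. The muscles began together, separated without overlap by day 14 and went on parting, and leg day 45 replicate 3 was far below its partners. Leg changed by -0.78 ± 0.24 (adjusted p = 0.0218) and EOM by 0.95 ± 0.24 (adjusted p = 0.00751), a difference of 1.73 ± 0.34 (adjusted p = 0.00726) that missed the limit when all 36 arrays were fitted together (adjusted p = 0.176). The leg fall itself did not pass without leg day 7 replicate 2 or 3 or leg day 28 replicate 1 or 2 (adjusted p from 0.0635 to 0.0997), nor with either other scaling, and the EOM rise did not pass without EOM day 28 replicate 2.

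The other lipid members stood higher in EOM at day 28. Scd2, a desaturase that makes monounsaturated fatty acids, was higher in EOM at each tested age, by 1.10 ± 0.29 at day 7 (adjusted p = 0.0264, lost without any 1 of 5 of the 6 arrays) and 1.89 ± 0.29 at day 28 (adjusted p = 0.000129). Cidea, a lipid droplet protein of fat cells, was higher in EOM by 1.73 ± 0.27 at day 28 (adjusted p = 0.000121), after leg had started above EOM at day 0 (mean log2 11.28 against 10.58). Cdipt, which makes phosphatidylinositol, was higher in EOM by 1.87 ± 0.41 at day 28 (adjusted p = 0.00389). Markers of other cell types moved beside these genes. The 10 lacrimal and Harderian gland probe sets, glands rich in lipid synthesis, summed in EOM to 25519 to 35847 at day 0 and 2769 to 2961 at day 28, and to 5517, 5664 and 2449 on EOM day 45 replicates 1, 2 and 3, the same 2 of 3 arrays on which Acly, Hsd17b12, Cidea and Insig1 were high. In leg the gland probe sets summed to 2619 to 4789 over all ages. The 9 cartilage and bone markers split alike on EOM day 45 replicates 1, 2 and 3 (16232, 15065 and 8934). So did the members Scd2 (7782, 9427 and 5244) and Akip1 (1927, 1537 and 811). EOM day 45 replicate 3 stood apart in muscle and nerve markers too, as the 9 skeletal muscle markers summed to 87127, 98464 and 187057 on the 3 EOM day 45 arrays, Myh13 read 16469, 17501 and 35126, and the Schwann markers summed to 45883, 50342 and 80161. The 8 adipocyte probe sets summed to 14911 to 18527 in EOM at day 0 and 29000 to 34113 at day 28, and to 24368 to 31657 and 27025 to 29398 in leg. The part of each in the lipid results was not tested.

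Tspan3, a tetraspanin of the cell surface, followed Pmp22 in leg day 0 mean. Leg read 17611, 15977 and 15603 at day 0, 16105, 16647 and 12985 at day 7 and 6412, 11138 and 9231 at day 14. From the third week it read 4501, 6991 and 9138 at day 21, 6499.6, 5898 and 5666 at day 28 and 4407, 6329 and 4562 at day 45. EOM read 12196, 12918 and 14774 at day 0, 15453, 14587 and 15434 at day 7 and 18062, 16657 and 14544 at day 14, and 12142, 13259 and 14257 at day 21, 14211, 14030.5 and 13092 at day 28 and 13990.5, 10939 and 11527 at day 45. EOM arrays stayed between 10939 and 18062, and from day 14 each lay above each leg array. The leg change was -1.33 ± 0.20 (adjusted p = 5.2e-05), the EOM change -0.14 ± 0.20 (adjusted p = 0.704), and the difference 1.20 ± 0.29 (adjusted p = 0.0304). The secretory pathway members moved less clearly. Scamp2, a secretory carrier membrane protein, fell in leg by 1.27 (adjusted p = 0.00716) and was higher in EOM by 1.35 ± 0.33 at day 28 (adjusted p = 0.00873), and both calls ended without leg day 28 replicate 1 (0.0611 and 0.0658). Serp1, which stabilises membrane proteins in the endoplasmic reticulum, fell in both muscles, by 0.90 in leg (adjusted p = 0.00495) and 0.68 in EOM (adjusted p = 0.0333). Its EOM fall did not pass with median scaling (adjusted p = 0.109), quantile normalization (0.0965), the 36-array fit (0.170), the arrays numbered 3 left out (0.113) or any 1 of 5 EOM arrays left out (0.0611 to 0.123), and its leg fall did not pass in the 36-array fit (0.0539) or without the arrays numbered 3 (0.0646). Cavin3, a coat protein of caveolae, changed by -1.15 ± 0.31 in leg (adjusted p = 0.00941) and -0.61 ± 0.31 in EOM (adjusted p = 0.185). Slc16a6, of the monocarboxylate transporter family, was above its day 0 leg mean of 10.27 at days 7 and 14 (10.90 and 10.66) and reached 8.54 only at day 45.

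The keratins Krt1 and Krt10, partner filament proteins of the upper layers of epidermis, were low in EOM throughout, so kept is not the word for them. Krt1 read 1172, 1686 and 2743 on the leg day 0 arrays and at most 446 on any EOM array, and its EOM day 0 replicate 3 was at the floor. Krt10 read 1636, 2100.4 and 3609.6 in leg at day 0 and at most 538 in EOM. On leg day 7 arrays they read 160.3, 204 and 1356 for Krt1 and 396, 298 and 2013 for Krt10, so that replicate 3 alone stayed high for both. The EOM mean log2 of Krt1 was 7.81 at day 0 and 7.49 at day 45, so there was little for EOM to keep. All 30 members passed the filter on low values, but Krt1 passed through leg arrays only, with no EOM array of days 7 to 28 above the limit of 320.4.

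Membership rested on few arrays near the limits. The nearest genes inside and outside the leg day 0 limit were Map2 (10.03) and Slc16a6 (10.27) against Fst (9.97) and Slc40a1 (9.85). At the limit on the leg change they were Prkar1a (-1.51) and Tgfb3 (-1.52) against Alox5ap (-1.4998) and Safb (-1.48), and at the limit on the EOM change Krt10 (-0.46) and Map2 (-0.45) against Cpa3 (-0.52) and Slc25a5 (-0.53). Between 23 and 37 genes met the rule when 1 array of days 0 or 45 was left out, and 9 of the 30 members met it without any 1 of them. Within a group, 26 members ranged over more than 1 log2 unit in at least 1 group and 9 over more than 2.

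Other probe sets of the same genes often behaved differently. The array held 37 of them for 20 members, 6 met the leg limit and 13 had a leg day 45 mean above that of day 0, such as another Igf1 probe set (1.15 log2). Of the 6, those of Acly and Klk1 met the whole rule. The Igf1 one (9.22) and 1 of Scd2 (8.94) lay under the leg day 0 limit. The Fstl1 one and another of Scd2 missed the EOM limit, with EOM changes from day 0 to day 45 of -0.89 and -0.55. Among those that missed the leg limit, some missed the EOM limit too, such as those of Pja2 (-0.52 and -1.31) and Tgfb3 (-0.56), and others met it. Of 29 that were tested, 17 had a difference of changes above 0 and 2 passed, for Klk1 and for Scd2 (2.19 ± 0.52, adjusted p = 0.0272), and none passed below 0 by the limma test. The further Fstl1 probe set had a difference of changes of 1.06 ± 0.33 (adjusted p = 0.102). It fell in EOM from day 7 to day 28 (-0.67 ± 0.23, adjusted p = 0.0421). Other probe sets of Pmp22 and Plpp3 had differences of 0.43 ± 0.31 and 0.36 ± 0.34 (adjusted p = 0.638 and 0.757). The other Tgfb3 probe set fell alike in both muscles (leg -0.89, EOM -0.90, difference -0.016 ± 0.26). A pair of other Stk39 probe sets gave differences of -0.0012 ± 0.86 and -0.31 ± 0.36, with leg changes of 0.20 and 0.26 that did not pass (adjusted p = 0.858 and 0.522).

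Genes of the pathways around the members were counted over the same test of the difference of changes, where 1.08% of all probe sets were higher and 0.748% lower. Of 16 neuromuscular junction genes, which include the members Chrnd and Prkar1a, 4 were higher and none lower, with a median of 0.48 log2 beside 0.02 for all probe sets. The others were the receptor subunits Chrne (1.64 ± 0.28, adjusted p = 0.00166) and Chrna1 (1.03 ± 0.24, adjusted p = 0.0231). Of 35 matrix genes, with a median of 0.47, 5 were higher and none lower, led by fibromodulin (Fmod, 2.34 ± 0.39, adjusted p = 0.00166) with Thbs4 among them. Of 18 developmental sarcomere and muscle isoforms 3 were higher, led by the myosins that were set aside, Myh8 (5.14 ± 0.42, adjusted p = 2.86e-07) and Myh3 (2.37 ± 0.34, adjusted p = 0.000301), and 1 was lower (Csrp3). In the fetal growth and insulin-like growth factor list 1 of 16 was higher, the glypican Gpc3 (1.43 ± 0.32, adjusted p = 0.0189), and Igf1 was not. Each of the cytoskeleton (34 genes) and axon growth (24 genes) lists had 1 higher gene, Map2 in both. Of 25 cell cycle genes, 16 fell in leg and 18 in EOM from day 7 to day 28, beside 15.7% and 12.3% of all probe sets. The changes differed for 1, Prim1, which fell further in EOM (-1.75 ± 0.45, adjusted p = 0.0482). Among 15 myogenic regulators, 7 fell in leg and 3 in EOM, and none differed by the limma test.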

How the data were processed

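Total RNA of rat EOM and leg muscle was measured on 36 RG-U34A arrays, 3 for each of 12 groups. The authors deposited 1 intensity per probe set and array, per the file headers. What software summarised them is not given in these sources. The 2% to 98% trimmed mean of the deposited intensities was 1499.8 on every array, so they had been scaled to 1 target. Intensities under 100 were raised to 100 and log2 taken. Gene names came from the platform annotation, with 7006 of 8799 probe sets naming 1 symbol, 308 several and 1426 none, and 59 controls were set aside.

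Members and all lists, roles and motifs were chosen with earlier results of these data known. Tests used limma 3.58.1 (R 4.3.3; lmFit, eBayes with a trended prior) on the 24 arrays of days 7 to 28, over 6280 probe sets above 320.4 (the 40th percentile) on 3 or more of these arrays, with Benjamini-Hochberg adjustment over all of them and a limit of 0.05. The script was checked on simulated data. The number of arrays limits the precision.

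Deviations of arrays with the same replicate number from their group means correlated above 0.1 in all 3 pairs between the muscles at days 7, 14 and 21 and between EOM days 7 and 28 (0.11 to 0.38), so the values with the replicate number as a block are given there. Members named with every array were the 12 with the smallest adjusted p in the difference of changes, the 3 highest in leg at day 0 and those with a difference below 0. Alternatives covered the floor, the filter, the scaling, quantile normalization, the prior, probe sets in the top 5%, all 36 arrays, the block and leaving out each array. Leaving out the arrays numbered 3 was added after seeing the data.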

Additional observations from a re-analysis of the deposited data

Results flagged for a closer look

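For 8 members the change from day 7 to day 28 differed between the muscles by the limma contrast of the 2 changes, EOM minus leg. Among nerve, synapse and cytoskeleton genes the differences were 2.20 log2 for Chrnd, 2.10 for Pmp22 and 2.38 for Map2. The protein kinase A subunit Prkar1a and the tetraspanin Tspan3 each differed by 1.20. The lipid phosphatase Plpp3 differed by 1.73, the matrix protein Thbs4 by 1.45 and the protease Klk1 by 3.54. In each case leg fell, and EOM rose for Klk1 and Plpp3.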

How the results depend on the processing

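Klk1, Chrnd and Pmp22 passed in the difference of changes under every setting run. Over all 30 members, 596 recomputed differences kept direction and side of the limit, 38 no longer passed, 11 newly passed and 10 turned sign. The cause of these changes was not tested.

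With the replicate block, 12 members (Fstl1, Klk1c3, Pja2 and Tgfb3 added) and 117 probe sets were higher in the difference of changes. The block also gave 4 members higher in EOM from day 7 to day 28, 1 lower at day 14, 130 probe sets lower at day 21, 236 lower from leg day 7 to 14, 2 members and 73 probe sets lower from leg day 14 to 21, and 24 probe sets lower from leg day 21 to 28. The numbers did not pair the arrays in these leg steps or at day 28, where they share only a number.

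Scaling each array to the same median moved the median of all probe sets by 0.14 in leg and 0.15 in EOM (day 28 minus day 7), by -0.14 between muscles at day 21 and by 0.16 from leg day 14 to 21. It gave 501 probe sets lower and 4 members higher in EOM, 6 members and 119 probe sets higher at day 21, 5 members lower from leg day 7 to 14 and 8 probe sets lower from leg day 14 to 21. Quantile normalization gave 1 member lower at day 14, 144 probe sets higher at day 21, and 1 member and 15 probe sets lower from leg day 14 to 21. Without the arrays numbered 3, 479 probe sets were lower in EOM, 11 were lower and 131 higher at day 21 with 6 members higher, and 3 members and 68 probe sets were lower from leg day 14 to 21. The fit over all 36 arrays gave 1 member higher in EOM and 1 lower from leg day 14 to 21. Without the filter, 5 members were higher in the difference and 1 at day 7. Without the top 5% of probe sets 1 member was lower at day 14, and a floor of 50 gave 14 probe sets lower from leg day 21 to 28.

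Leaving out 1 array moved members higher in the difference from 5 to 8 and probe sets from 48 to 72. At day 7 it gave 64 to 114 probe sets lower, 114 to 195 higher and 1 to 2 members higher. At day 14 it gave 76 to 185 lower, 113 to 206 higher, 7 to 11 members higher and 0 to 1 lower. At day 21 it gave 5 to 72 lower, 74 to 331 higher and 5 to 16 members higher, and at day 28 204 to 279 lower and 301 to 493 higher. In leg it gave 5 to 9 members and 72 to 164 probe sets lower to day 14, 0 to 4 and 6 to 101 from day 14 to 21, and 2 to 22 probe sets from day 21 to 28.

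Sign turned in the difference of 4 members that never passed: Actg2 (-0.49 to 0.0518 with 1 array left out), Egfl7 (-0.0189 to 0.33), Krt10 (-0.18 to 1.20, and -0.0806 without arrays numbered 3) and Nos2 (-0.59 to 1.44, and -0.31). The rule itself gave 29 genes after median scaling, 27 after quantile normalization, 42 when any probe set could qualify and 23 to 37 with 1 array left out.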
